A study of Mus musculus with 14 samples.

Results

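The LGI proteins and the ADAM22 family form a ligand and receptor system of the nervous system, and its 7 genes are described here in mouse spinal cord: the receptors *Adam22*, *Adam23* and *Adam11* and the ligands *Lgi1*, *Lgi2*, *Lgi3* and *Lgi4*. All 7 were found by symbol among the 19215 genes of the RNA-seq tables. Their Entrez identifiers also matched 24 of the 13189 cassette exon events, which correspond to 13 distinct exons: 10 in *Adam22*, 2 in *Adam23* and 1 in *Lgi2*. No event was listed for *Adam11*, *Lgi1*, *Lgi3* or *Lgi4*.

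LGI proteins are secreted and carry a leucine-rich repeat region followed by EPTP repeats that bind the receptors. ADAM22, ADAM23 and ADAM11 are membrane proteins of the ADAM family that lack protease activity. The ADAM22 cytoplasmic tail, built from alternatively spliced exons, can end in a motif that binds PDZ domains of scaffolds such as PSD-95, and the complex is known at excitatory synapses and beside Kv1 potassium channels of axons. Loss of LGI1 causes epilepsy, and LGI4 acts with ADAM22 in the myelination of peripheral nerves. NOVA1 and NOVA2 are neuronal RNA binding proteins that control alternative splicing through clusters of YCAY tetramers, where Y is C or T.

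RNA levels came from poly(A) RNA-seq of 2 spinal cords of 12-week-old Tg(SOD1)2Gur/J mice on a B6/SJL background, which carry a wild-type human SOD1 transgene (1 male and 1 female library). NOVA binding came from HITS-CLIP, in which RNA crosslinked to NOVA is immunoprecipitated and sequenced, and each deposited line is 1 unique CLIP tag. The motoneuron (MN) group held 4 libraries of line Chat:GFP-Nova #6 (Chat6) and 4 of line Chat:GFP-Nova #17 (Chat17), hemizygous 3-month-old C57BL/6 mice that express GFP-tagged NOVA2 from a bacterial artificial chromosome under the *Chat* promoter. Spinal cords of several of these mice were pooled per library and precipitated with anti-GFP antibodies. The whole spinal cord (WSC) group held 4 libraries of 1 wild-type C57BL/6 mouse each, aged 3 months, precipitated with a human anti-NOVA serum against endogenous NOVA. Antibody, tagged protein, pooling and depth therefore all changed with the group, and cannot be told apart from cell type in any MN and WSC difference below. In such bulk samples, fewer cells of a type and less RNA per cell cannot be told apart either.

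The CLIP libraries held 65961 to 871804 tags in MNs and 2213104 to 6095995 in WSC, and the RNA libraries 72006019 and 65625173 reads on genes. MN tags were less often exonic over all genes, with 33.2% to 46.3% of assigned tags in exons against 60.5% to 65.7% in WSC. Marker genes followed the labels. The 3 of 6 motoneuron markers that could be tested were higher in MN CLIP, *Chat* by 3.08 on the log2 scale, and the 4 inhibitory neuron markers were all lower, *Slc6a5* by -4.27 (edgeR quasi-likelihood test, adjusted p below the 0.01 threshold for each).

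At the RNA level *Lgi3* was the most abundant gene of the system, and the remaining genes fell into 3 tiers below it. *Lgi3*, a ligand known from oligodendrocytes and neurons, reached 110.5 RPKM (male) and 120.0 RPKM (female), a mean of 115 ± 6.76 (SD, n = 2), and ranked 468 of 19215 genes. Both of its libraries lay above every value of the other 6 genes. RPKM is the read count scaled to exon length and library total, so levels of different genes can be set side by side.

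*Lgi2* had 54.2 RPKM (male) and 52.8 RPKM (female), a mean of 53.5 ± 1.02. The receptor *Adam23* had 50.97 and 53.5 RPKM, a mean of 52.2 ± 1.76, so the ranges of these neighbours overlapped. The RPKM of *Lgi2* divides by an exon length of 1999 nt in the authors' table, whereas exons annotated in GENCODE M1 cover 6367 nt of the gene, and its place relative to *Adam23* rests on that length. *Adam22* followed at 27.9 and 27.1 RPKM (mean 27.5 ± 0.55), apart from the genes above and below it.

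The lowest tier held *Lgi1*, *Adam11* and *Lgi4*, whose ranges overlapped. *Lgi1* had 15.9 and 18.4 RPKM. *Adam11* had 18.8 and 15.3 RPKM, and *Lgi4*, the ligand of Schwann cells and satellite glia, 15.3 and 16.4. Even this tier stood above at least 76.8% of all genes. The Schwann cell markers *Prx*, *Egr2* and *Pmp2* were at 0.25 RPKM or below in both libraries, while *Pmp22*, which other cells share, had 69.4 and 83.8 RPKM. Summed over the 4 ligands the level was 196 RPKM in the male and 208 RPKM in the female library, and over the 3 receptors 97.7 and 95.8 RPKM.

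**Figure D1:**
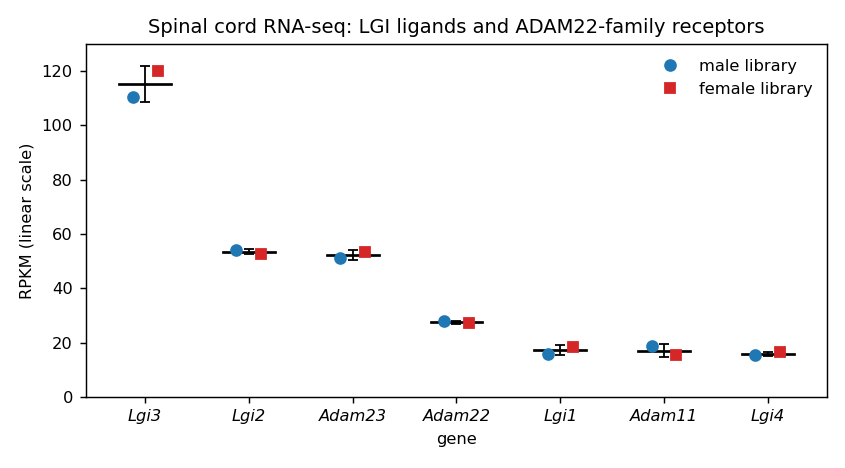
RPKM (linear vertical axis) of the 7 genes in the male (circles) and female (squares) RNA-seq library, with black lines for the mean and bars for the SD over both libraries. *Lgi3* stands alone at a mean of 115 RPKM, *Lgi2* and *Adam23* overlap near 53, and *Lgi1*, *Adam11* and *Lgi4* overlap between 15.3 and 18.8. The place of *Lgi2* rests on an exon length of 1999 nt in the authors' table.

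The difference between the female and the male library was small for every member. It ran from -0.30 (*Adam11*) to 0.21 (*Lgi1*) on the log2 scale, with 0.1 RPKM added before the logarithm. Among the 11940 genes with a mean of at least 1 RPKM the median absolute difference was 0.14 and the 90th percentile 0.39. With 1 library per sex, sex and library cannot be told apart, and no test was run.

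Genes that work with the system were measured from lists of partners. All 11 genes of the juxtaparanode and Kv1 list had a mean of at least 1 RPKM, led by *Kcnab2* (182 ± 22.0 RPKM), a Kv1 beta subunit, *Epb4.1l3* (139 ± 3.83), a membrane to cytoskeleton linker, and the channel *Kcna1* (85.4 ± 0.86). Of the 6 MAGUK scaffolds the highest was *Dlg4* (81.2 ± 6.98), which encodes PSD-95. The 10 AMPA receptor and TARP genes were led by *Cacng7* (76.3 ± 0.76) and *Cacng2* (58.6 ± 9.32), auxiliary subunits of AMPA receptors. The 14-3-3 genes, whose products bind phosphorylated ADAM22, included the highest values of all lists, with *Ywhae* at 401 ± 5.002 and *Ywhag* at 244 ± 5.84. All other ADAM genes on the list lay below *Adam22*, with *Adam10* highest at 26.6 ± 0.34 RPKM.

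*Adam22* spliced its transcripts in 2 variable blocks near the 3' end of the gene. The gene spans chr5:8072352-8368160 of mm9 on the minus strand. In what follows its cassette exons are named by length. An inclusion rate is the average of the upstream and downstream junction reads of an exon, divided by the sum of that average and the reads that skip it. Intervals are 95% Wilson intervals, which cover counting error only.

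The 67-nt exon (chr5:8232610-8232676) was included in every informative read, with no skipping read against 158 (male) and 104 (female) junction reads. The 91-nt exon (chr5:8111895-8111985), annotated as coding, was joined to the exon before it by 77 and 63 reads, and skipped by 1 and 0. *Adam23* has a pair of exons of the same length, at chr1:63627711-63627801 and chr1:63631939-63632029, which are alternatives between the same flanking exons. These 3 exons are shown because they have the same length in both paralogs. YCAY tetramers are in capitals, searched on the transcribed strand with overlapping matches counted. They are TCAT and TCAC where the first base is T, and otherwise CCAT and CCAC where it is C.
Adam22 91-nt exon: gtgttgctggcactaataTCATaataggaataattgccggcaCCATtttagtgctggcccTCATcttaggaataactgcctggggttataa
Adam23 first 91-nt exon: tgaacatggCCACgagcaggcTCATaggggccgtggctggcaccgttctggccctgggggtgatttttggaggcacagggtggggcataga
Adam23 second 91-nt exon: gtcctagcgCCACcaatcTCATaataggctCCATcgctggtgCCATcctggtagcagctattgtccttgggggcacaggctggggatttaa

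Read position by position, the second *Adam23* exon shared 54 of 91 bases (59.3%) with the *Adam22* exon and 50 (54.9%) with the first *Adam23* exon, which shared 46 (50.5%) with *Adam22*. Nearly all spliced reads used the second *Adam23* exon. From the donor before the pair, 166 of 177 male reads (93.8%, 95% interval 89.2 to 96.5) and 132 of 134 female reads went to the second exon. The first exon received 1 and 0 reads, and 10 and 2 reads skipped both. Within the exons lay 7 and 16 reads of the first and 81 and 92 of the second, and with these added the mean rate of the first exon was 66.7% in place of 2.38%, over few reads. Reads leaving the second exon (619 and 567) outnumbered those entering it, which the listed junctions do not account for.

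The first variable block of *Adam22* holds an 18-nt exon and a region that splices as a 108-nt or a 195-nt exon. The 195-nt exon is the 108-nt exon, a further 25 nt (chr5:8095048-8095072) and the 62-nt segment that is listed as an exon of its own. The 18-nt exon (chr5:8107002-8107019) was the main choice, taking 87 of 97 male reads from the donor before it (89.7%, 82.1 to 94.3) and 119 of 127 female reads. After it, 111 of 145 and 95 of 107 reads went on to the 108-nt or 195-nt exon, and 34 and 12 reads skipped both. The shorter form was the usual one, with 92 and 78 reads leaving from the end of the 108-nt part and 4 and 3 from the end of the 195-nt form. No read entered the 62-nt segment on its own.

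The second block lies in a 10070-nt interval between its flanking exons and holds cassette exons of 58, 111, 87 and 30 nt, in this order along the transcript. The last 3 are annotated as coding and have lengths divisible by 3. The 58-nt exon is in 1 annotated transcript, is not annotated as coding and has a length that leaves a remainder of 1. Their sequences are shown because the splicing choices and the NOVA tags below turn on them, again with YCAY in capitals.
58-nt exon (chr5:8091365-8091422): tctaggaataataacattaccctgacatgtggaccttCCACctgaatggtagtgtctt
111-nt exon (chr5:8090142-8090252): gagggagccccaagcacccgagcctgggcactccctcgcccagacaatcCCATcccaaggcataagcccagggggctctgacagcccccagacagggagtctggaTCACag
87-nt exon (chr5:8087982-8088068): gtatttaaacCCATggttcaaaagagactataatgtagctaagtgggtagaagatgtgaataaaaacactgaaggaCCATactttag
30-nt exon (chr5:8086594-8086623): ctcccaagatggcCCACatcaacaagacag

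Spliced reads joined these exons to their flanks and, less often, to each other. From the donor before the block the male library sent 36 of 83 reads to the 87-nt exon (43.4%, 33.2 to 54.1), 24 to the 111-nt exon (28.9%, 20.3 to 39.4), none to the 30-nt exon and 23 past the whole block (27.7%, 19.2 to 38.2). The female library sent 38 of 120 to the 87-nt exon (31.7%, 24.0 to 40.4), 13 to the 111-nt exon (10.8%, 6.44 to 17.7), 5 to the 30-nt exon and 62 past the block (51.7%, 42.8 to 60.4). The share that skipped the block was thus higher in the female library, and the intervals of the libraries did not overlap. The 58-nt exon had almost no spliced reads, with 0 and 2 entering and 3 and 0 leaving, an inclusion rate of 6.12% and 1.59%, although 34 and 47 reads lay within it.

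At the far end of the block the 30-nt exon was the most frequent partner of the following exon, giving 80 of 158 male reads and 66 of 173 female reads (38.2%, 31.2 to 45.6). The 87-nt exon gave 43 and 37 of these reads and the 111-nt exon 9 and 8. Reads entered the 30-nt exon from the 111-nt exon (11 and 3) and the 87-nt exon (10 and 2), so that 21 and 10 reads entered it whereas 80 and 66 left it. The listed junctions do not account for this gap, and rates of the 30-nt exon that average both junctions carry it.

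**Figure D2:**
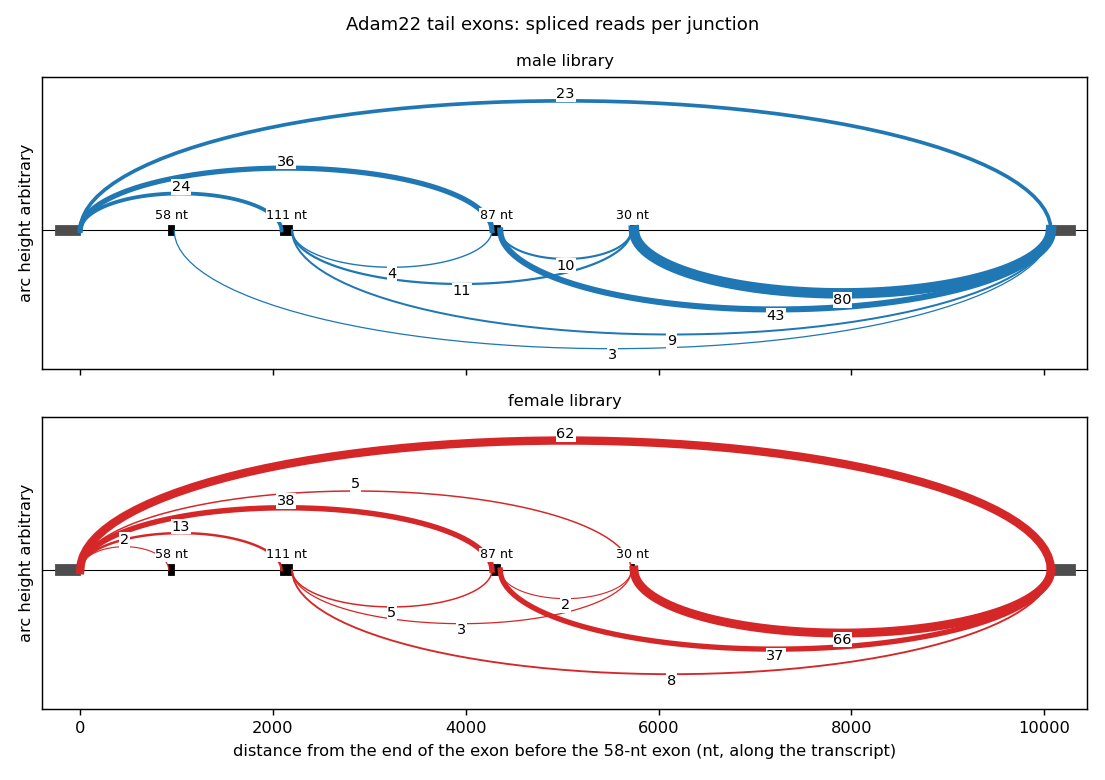
Spliced reads in the second variable block of *Adam22*, with the horizontal axis in nt along the transcript from the end of the exon before the block, 1 panel per RNA-seq library, boxes for exons and arcs for junctions labelled with their read count (line width grows with the count, arc height has no unit). The arc over the whole block carries 23 reads in the male and 62 in the female library, and the arc from the 30-nt exon 80 and 66.

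Between the male and female libraries, 3 of the 22 member events that could be tested passed (Fisher's exact test, two-sided, Benjamini-Hochberg FDR ≤ 0.1 over 9396 events), where 4.26% of all events did. The test took the authors' inclusion and skipping counts. Inclusion there counts reads within the exon too, whereas the rates below use junction reads alone. The events that passed were the 111-nt, 87-nt and 30-nt exons measured against the junction that skips the block. Their rates were 41.8% and 14.5%, 63.2% and 37.7%, and 63.5% and 36.4%. Adjusted p was 0.000163 for the 111-nt and 0.000816 for the 30-nt exon. By Fisher's exact test on junction reads only it was 0.0103 and 0.0128. The 30-nt rate rests on reads leaving the exon, and on its smaller junction, the entry, it was 0% and 7.46%, in the opposite direction. All 3 events share the same 23 and 62 skipping reads and are therefore not independent. Among the other choices in this block none passed. Against the junction from the 111-nt exon to the exon after the block, the 87-nt exon had rates of 72.3% and 72.4%, and the 30-nt exon of 83.5% and 81.2%, both with an adjusted p of 1. Against the junction from the donor before the block to the 30-nt exon, which had 0 and 5 reads, the 111-nt exon had 100% and 61.5% (adjusted p = 0.174) and the 87-nt exon 100% and 80.0% (adjusted p = 0.148). The 111-nt exon against the junction to the 87-nt exon had 28.0% and 19.1% (adjusted p = 0.686). With 1 library per sex this compares libraries, not sexes. In the first block the event listed for the 195-nt exon after the 18-nt exon lay just outside the threshold (62.8% and 80.3%, adjusted p = 0.100214 by the same test and 0.226 by junction reads only). Its entry junction is shared with the 108-nt exon, and on its smaller junction, the exit, the rate was 10.5% and 20%. By junction reads only, 3 of 22 member events passed (3.3% of all events), with at least 10 junction reads in both libraries together 3 of 24 (3.71%), and with at least 20 in each 4 of 20 (4.47%).

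*Lgi2* had 1 listed exon, of 72 nt (chr5:52946901-52946972), with a length divisible by 3 and annotated as coding, like the leucine-rich repeat exons of its family. No read skipped it, against 444 (male) and 386 (female) junction reads. The skipping share allowed by these counts was up to 1.44% of male and 1.52% of female donor reads (3 reads).

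NOVA tags were far from proportional to RNA. *Adam23* carried the most tags of all members, 31674 in WSC and 2895 in MNs, and *Adam22* came next with 16089 and 1412. *Lgi2* had 4136 and 147 tags, *Lgi1* 1823 and 82, *Adam11* 570 and 33, *Lgi3* 383 and 31, and *Lgi4* 55 and 6. Per kilobase of annotated exon, the exonic tag level in WSC, in CPM (tags scaled to 1000000 tags assigned to genes), was 195 ± 12.6 for *Adam23* and 46.5 ± 3.00 for *Adam22* (SD, n = 4). *Lgi2* had 45.0 ± 4.04, *Lgi1* 11.9 ± 2.22, *Lgi3* 8.34 ± 0.73, *Adam11* 7.16 ± 0.34 and *Lgi4* 0.75 ± 0.32. *Lgi3*, first in RNA, was thus among the lowest in exonic tag density, while *Adam23* was highest. The RNA and CLIP mice differed in genotype and strain, so these values stand side by side without a test. RPKM used the exon lengths of the authors' table, and tag density those of GENCODE M1. The RNA came from all cells of the cord, whereas NOVA is neuronal, and the paper calls this RNA reference less than ideal.

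The ligand *Lgi2* had fewer NOVA tags in MNs than in WSC in every library. Its 8 MN libraries ran from 68.3 to 106 CPM with a median of 88.2, and the WSC libraries had 310, 320, 274 and 265 CPM. The difference was -1.55 on the log2 scale (SE 0.12, adjusted p = 1.14e-11, edgeR quasi-likelihood test), 2.93 times fewer tags. *Lgi1*, the ligand linked to epilepsy, followed the same direction, from 8.16 to 91.2 CPM with a median of 17.6 in MNs against 104, 151, 131 and 114 CPM in WSC. Its difference was -1.21 (SE 0.23, adjusted p = 3.57e-05). Of its 82 MN tags, 29 came from Chat6 replicate 3 and 41 from Chat17 replicate 4, and without the former the value was -1.52.

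The receptors with many tags differed less between the groups. *Adam22* had 791 to 1034 CPM in MNs (median 876) and 1104, 1229, 1103 and 1141 in WSC, a difference of -0.26 (SE 0.09, adjusted p = 0.0146) that missed the 0.01 threshold although the groups did not overlap. It passed with DESeq2 and with relative log expression size factors (both -0.29). *Adam23* had 1550 to 2126 CPM in MNs (median 1930) and 2448, 2270, 2134 and 2337 in WSC, a difference of -0.20 (SE 0.10, adjusted p = 0.0628). The direction for *Adam23* depended on which tags were counted. It was 0.41 with exonic tags only (adjusted p = 0.0017, edgeR), 0.19 outside exons and 0.05 with each position counted once. The exonic fit and the fit outside exons scaled each library to those tags alone, and their shares differed between the groups. Scaled to all assigned tags, exonic *Adam23* tags per kilobase of exon were lower in MNs. They ran from 121.8 to 168.0 CPM there and from 179.4 to 209.6 CPM in WSC. In the same fits *Adam22* was called at -0.73 outside exons (adjusted p = 1.06e-07, edgeR) and stood at -0.06 in exons. Scaled to all assigned tags, its exonic tags per kilobase of exon were also lower in MNs. They ran from 19.0 to 39.3 CPM there and from 44.6 to 50.9 CPM in WSC, so these fits do not place the difference in introns.

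These calls are read against a wide background. Of 4538 genes tested 57.4% passed FDR ≤ 0.01, 28.1% with more and 29.2% with fewer tags in MNs, and CPM ranges did not overlap for 30.2%, MN being lower for 18.9%. Of the 4 members tested, 2 passed, both with fewer tags in MNs, and the ranges of all 4 did not overlap. *Adam11*, *Lgi3* and *Lgi4* did not pass the filter on low counts. In the fit without that filter, where the median gene stood at -0.31 and 23% of 16420 genes were called, 7.17% higher and 15.9% lower, *Adam11* was at -1.05 (SE 0.27, adjusted p = 0.000637), *Lgi3* at -0.59 (adjusted p = 0.105) and *Lgi4* at -0.11 (adjusted p = 0.899). *Lgi3* had no tag in 3 of 8 MN libraries and *Lgi4* none in 4. Neither was called in this fit, and what size of difference this depth could show was not tested.

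**Figure D3:**
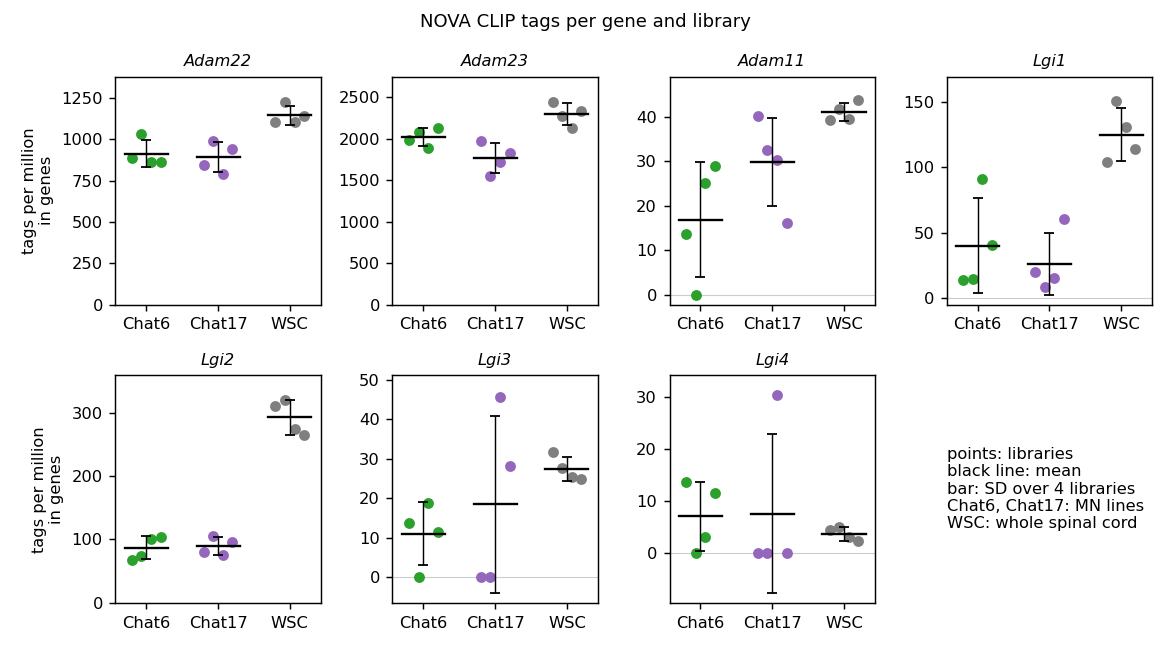
NOVA CLIP tags in CPM (linear vertical axes, 1 panel per gene) in the Chat6 and Chat17 MN libraries and in WSC, points for libraries, black lines for means and bars for the SD over 4 libraries. The *Lgi2* and *Lgi1* panels show all 8 MN libraries below the 4 WSC libraries, *Adam22* and *Adam23* a smaller gap, and *Lgi3* and *Lgi4* scatter from 0. The sign for *Adam23* turned in fits scaled to exonic tags alone or to tags outside exons alone, and with each position counted once.

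Members of the marker lists moved between the same groups, and the part of this in the results on *Lgi1* and *Lgi2* was not tested. Besides the inhibitory neuron genes, the excitatory interneuron gene *Slc17a6* was lower in MNs (-3.53), as were 3 of 3 astrocyte genes tested (*Slc1a2* -1.15, *Gfap* -0.76, *Aqp4* -0.71) and the oligodendrocyte gene *Mobp* (-0.61), while *Mbp* stood at -0.11 (adjusted p = 0.529, edgeR). No microglial, endothelial or sensory neuron marker had enough tags to be tested. The partner lists split both ways. In the Kv1 list 2 of 8 tested genes were higher in MNs, *Kcnab1* (0.64) and *Cntnap2* (1.16), and 2 lower, *Kcna2* (-0.90) and *Kcnab2* (-1.24). Of 5 scaffolds *Dlg1* (0.58) and *Dlg2* (0.62) were higher and *Dlg3* (-0.64) and *Dlg4* (-1.42) lower. Of 7 AMPA receptor and TARP genes *Gria3* (0.63) and *Gria4* (0.55) were higher and *Cacng2* (-0.43) lower. Of 6 14-3-3 genes *Ywhab* (0.39) was higher, and *Ywhae* (-1.49) and *Ywhag* (-0.53) were lower. The partner *Itgav* (-0.58) was lower, and *Adam19* (2.30) was the 1 of 3 other ADAM genes tested to be called.

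Between the Chat6 and Chat17 lines no gene was called (0 of 2053, edgeR, and 0 with DESeq2, with 72 genes at an unadjusted p under 0.05). *Adam23* stood at 0.17 (SE 0.13) and *Adam22* at -0.02 (SE 0.15) for Chat6 against Chat17, and the other members had too few tags for this test. The genes whose CPM followed a member most closely over the 12 CLIP libraries, among 2507 genes with enough tags, were *Zmat3* (Pearson r = 0.963) and *Ubr4* (0.936) for *Adam22*. They were *Avl9* (0.917) and *Wdr37* (0.915) for *Adam23*, *Ywhag* (0.931) and *Smad9* (0.927) for *Lgi1*, and 6330439K17Rik (0.991) and *Tcf20* (0.988) for *Lgi2*. These correlations describe libraries that fall into MN and WSC groups, and they carry no test.

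The members differed in where NOVA tags fell. In WSC 98.0% of *Lgi2* tags, 92.9% of *Adam23* tags and 74.7% of *Lgi1* tags were exonic, against 49.997% (95% interval 49.2 to 50.8) for *Adam22*, whose other tags were intronic. In MNs the exonic share was 90.5%, 83.0%, 45.1% and 31.9% in the same order. The odds of an exonic tag were lower in MNs for 5 of the 6 members tested, in a comparison added after the data were seen, where 51.6% of 7456 genes were called, 51.5% lower and 0.0671% higher, and the median gene stood at -1.65 on the log2 scale. *Adam22* stood at -0.94 (SE 0.16), *Adam23* at -1.37 (SE 0.16), *Lgi1* at -1.82 (SE 0.38), *Lgi2* at -2.36 (SE 0.57) and *Adam11* at -3.96 (SE 0.99), and their distance from the median gene was not tested. *Lgi3* was at -2.48 (adjusted p = 0.0185, edgeR). Without Chat17 replicate 4, the deepest MN library, *Lgi1* (-1.36, adjusted p = 0.0254), *Lgi2* (-2.19, adjusted p = 0.0128) and *Adam11* (-2.86, adjusted p = 0.0948) no longer passed.

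Outside *Adam22*, the position under the most WSC tags of each member lay in a 3' UTR or a coding exon. For each of these genes that position is given with its sequence, 30 nt for UTR sites, since it is the base covered by the most tags. The crosslinked bases themselves were not determined.
Adam23 3' UTR (chr1:63641241-63641270, plus strand): agtgttggctttTCACccTCACagagcaga
Lgi2 3' UTR (chr5:52929051-52929080, minus strand): actaaaatTCACaatgcactgggggaaata
Lgi1 3' UTR (chr19:38382555-38382584, plus strand): agaagcaacaccctgggTCACCACgcacaa
Adam11 3' UTR (chr11:102639716-102639745, plus strand): tccccctgtgaatgtagcctCCATCATCAC
Lgi3 coding exon (chr14:70936116-70936176, plus strand): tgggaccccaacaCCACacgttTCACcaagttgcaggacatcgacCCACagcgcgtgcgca
Lgi4 coding exon (chr7:31848139-31848199, plus strand): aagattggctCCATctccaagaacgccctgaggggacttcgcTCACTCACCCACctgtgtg

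The *Adam23* site lay under 3348 WSC tags, 10.6% of all tags of the gene, and 202 MN tags (6.98%) covered the same base, with tags in all 8 MN libraries. The MN maximum of *Adam23* was 1 nt away. The *Lgi2* site had 528 WSC tags (12.8%) and 11 MN tags (7.48%). The *Lgi1* site had 162 WSC tags and 1 MN tag, and the *Adam11* site 117 WSC tags, 20.5% of the gene, and none of the 33 MN tags. The *Lgi3* site, in the coding sequence, had 75 WSC tags (19.6%) and 2 MN tags, and the *Lgi4* site 19 of 55 WSC tags and 3 of 6 MN tags. The MN maximum of *Lgi1*, with 8 tags from 1 library, fell on a CT repeat with no YCAY in 61 nt.

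Around the WSC maxima of *Adam11*, *Lgi1* and *Lgi4* the surrounding 61 nt held 4 YCAY tetramers, around that of *Lgi3* 3, around that of *Adam23* 2 and around that of *Lgi2* 1. Of consecutive 61-nt windows tiled along the genes, between 49.6% (*Lgi3*) and 66.8% (*Lgi4*) held at least 1 and between 6.504% and 11.1% at least 3. A match is a description of the letters and not evidence of a site.

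*Adam22* differed from the other members in that its WSC maximum was intronic, beside a cassette exon. It was 122 nt before the 58-nt exon, with 579 tags (3.599% of the gene, 74 to 223 per library) against 16 MN tags (1.13%). The MN maximum was the first base of the 30-nt exon, with 31 tags (2.20%) in all 8 libraries and 247 WSC tags (1.54%). Both 61-nt windows are shown because the former lies beside the exon whose tag share differed, as described next, and the latter at an exon whose share did not pass. Each was chosen as the maximum of its own group, so the shares at these positions favour that group.
Before the 58-nt exon (chr5:8091515-8091575, minus strand): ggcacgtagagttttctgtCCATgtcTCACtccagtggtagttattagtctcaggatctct
At the 30-nt exon (chr5:8086593-8086653, minus strand): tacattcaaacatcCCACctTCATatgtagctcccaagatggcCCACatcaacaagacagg

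The 10070-nt interval of the second variable block held 5195 WSC tags, 32.3% of all tags of the gene (31.0% to 33.3% per library). It held 372 MN tags, 26.3% (11.9% to 30.5% per library). Within it nearly all tags lay before the end of the 30-nt exon. The first 5747 nt held 96.9% of the WSC tags and 93.0% of the MN tags, and the last 4323 nt the remaining 163 and 26 tags.

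**Figure D4:**
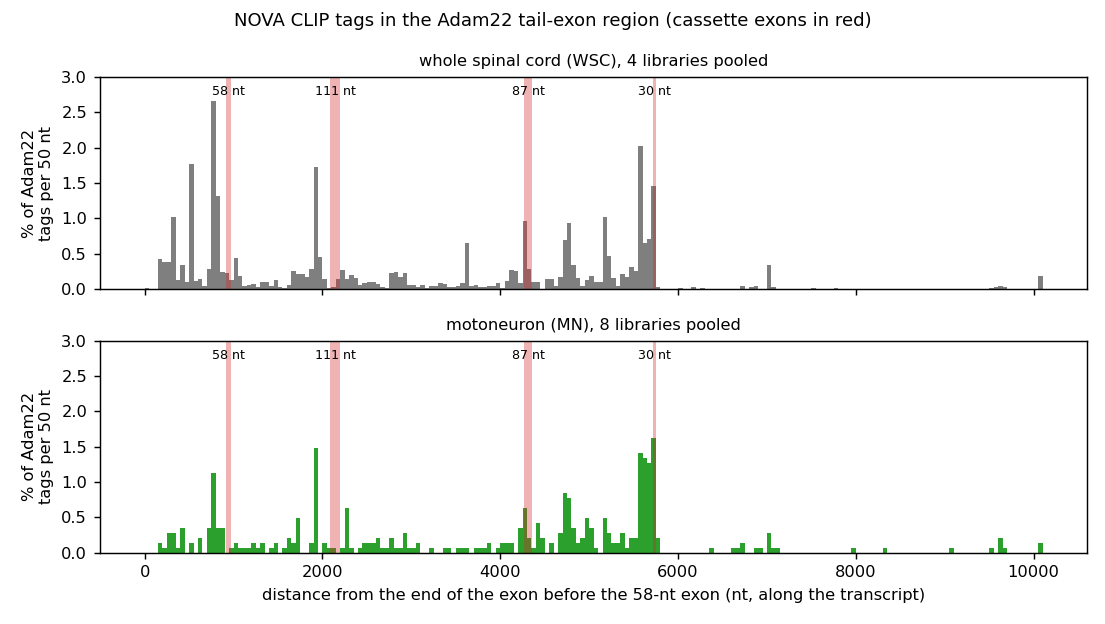
Share of all *Adam22* tags in each 50-nt bin (percent, linear axis) along the interval of the second variable block, for 4 pooled WSC and 8 pooled MN libraries. Positions are in nt along the transcript from the end of the exon before the block, and cassette exons are shaded. The highest WSC bin, before the 58-nt exon, holds 2.66% of the tags against 1.13% in MNs, and the highest MN bin, at the 30-nt exon, 1.63% against 1.46% in WSC.

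Tags around the 58-nt exon made up a smaller part of *Adam22* tags in MNs than in WSC. Within the exon and 300 nt on either side lay 6.16%, 5.97%, 5.50% and 5.87% of the tags of the gene in the WSC libraries. In the 8 MN libraries the share ran from 0% to 4.70% with a median of 2.66%. The groups did not overlap, but the MN shares rest on 0 to 20 window tags per library. How many of all windows lack overlap was not counted. The ratio of window tags to other tags of the gene was lower by -1.02 on the log2 scale (SE 0.22, adjusted p = 0.00039, edgeR quasi-likelihood test of the interaction), a 2.03-fold difference. Of 941 WSC tags in the window 770 were on the upstream side, 33 in the exon and 138 downstream, and of 42 MN tags 34, 1 and 7. Further upstream, outside this window, the bin from 500 to 550 nt of the interval held 285 WSC tags (1.77% of the gene) and 2 MN tags (0.14%).

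No other member window passed the threshold of FDR ≤ 0.1, which 15.6% of 2596 windows did, 9.48% with more and 6.12% with fewer tags in MNs. The 111-nt exon had 3.93% of the gene's tags in WSC and 2.90% in MNs, a difference of -0.46 (SE 0.25, adjusted p = 0.234). The 87-nt exon had 2.58% and 2.48% (-0.08, SE 0.27), and the 30-nt exon 5.58% and 6.37% (0.22, SE 0.18). In the first block the window of the 195-nt exon had 0.71% and 1.204% (0.75, SE 0.40, adjusted p = 0.236). The 91-nt exon of *Adam22* had 25 WSC tags and none of 1412 MN tags, which allows a share of up to 0.212% (3 tags). The 2 *Adam23* exons had 22 and 74 WSC tags and 4 MN tags each, too few for a narrow estimate. The *Lgi2* exon had 8 WSC tags and 1 MN tag and was not tested.

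Since MN tags were less often exonic, the windows were also compared with only the tags outside exons, in the window and in the gene, an alternative added after the data were seen. The 58-nt exon was then at -1.51 (SE 0.22, adjusted p = 4.89e-08) and the 111-nt exon at -0.90 (SE 0.24, adjusted p = 0.0124) (called here and without Chat6 replicate 3, at -0.82), where 6.59% of 1107 windows were called, 4.25% higher and 2.35% lower. The 30-nt exon was at -0.26 (SE 0.19, adjusted p = 0.495), with the opposite sign to the value over all tags. With a flank of 100 nt, which leaves out the site before the 58-nt exon, that exon was at -0.91 (adjusted p = 0.17). With a flank of 500 nt, over all tags, it was at -1.31 (adjusted p = 8.27e-08, edgeR), where 549 of 3408 windows were called.

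**Figure D5:**
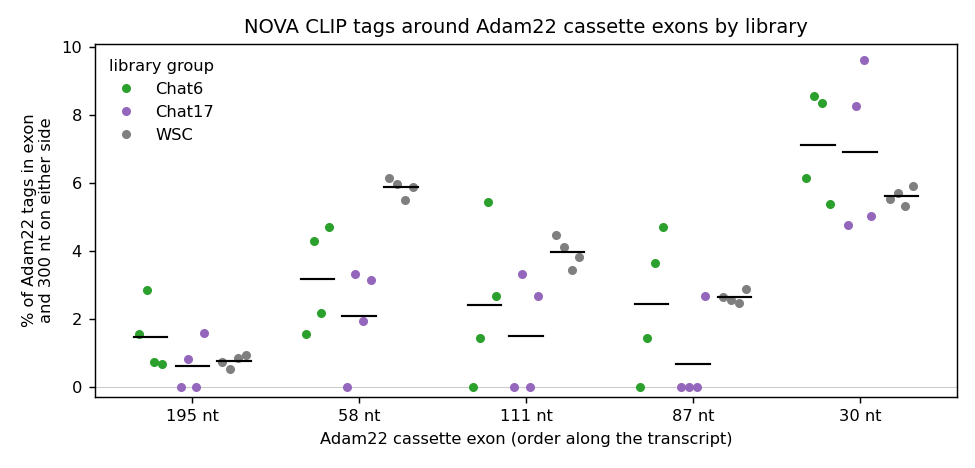
Percent of *Adam22* tags that lie in a cassette exon or within 300 nt on either side (linear vertical axis), for 5 exons in the order of the transcript, with 1 point per library in the Chat6, Chat17 and WSC groups and black lines for the means. At the 58-nt exon the WSC libraries sit between 5.50% and 6.16%, above all 8 MN libraries, whereas at the 195-nt, 111-nt, 87-nt and 30-nt exons the groups overlap. The MN points at the 58-nt exon rest on 0 to 20 tags each, and how many of all windows show such a gap was not counted.

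YCAY tetramers in the 100 nt beside these exons numbered 3 before the 58-nt and 3 before the 30-nt exon, a count reached by 24.6% of 12208 cassette exons. The 111-nt exon had 2 before and 4 after it, the latter reached by 8.01% of the exons, and the 87-nt exon 1 before and none after. The 108-nt exon had 5 in the 100 nt after it, which 3.26% of exons reached, and these lie in the 62-nt part that the 195-nt exon adds.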

How the data were processed

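HITS-CLIP of NOVA covered 8 MN and 4 WSC libraries, and RNA-seq 2 spinal cords. Per the labels and the study's methods, the authors mapped CLIP reads to mm9 with Novoalign, removed reads that lie just before GTGTC-like pentamers and collapsed duplicates; the deposited score of each tag was not used. They mapped RNA reads with OLego, kept unambiguous reads, and deposited counts and RPKM per gene and junction counts per cassette exon.

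A tag counted for a gene if its midpoint lay in exactly 1 protein-coding gene of GENCODE M1 on its strand. Tag counts were tested with edgeR 4.0.16 quasi-likelihood fits (TMM, filterByExpr, Benjamini-Hochberg FDR ≤ 0.01 for genes and ≤ 0.1 for exon windows, flank 300 nt), and junction counts with Fisher's exact test on exons with at least 10 junction reads in each library. DESeq2 1.42.0 was an alternative. Scripts were tested on simulated counts. No replicate pair differed by less than sampling noise. Antibody, pooling and depth differ between the CLIP groups, which limits MN precision. The members, all their exons, the partner lists (naming at most 4 genes each by highest RPKM) and the markers were chosen with earlier results of these data known. Partner genes called in CLIP, and marker values, were named after their values were seen. Some listed partner and marker genes are not reported here. Sequences are from mm9.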

Additional observations from a re-analysis of the deposited data

Results flagged for a closer look

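Among 46 groups of 4 CLIP libraries examined for a library far from the others, 2 were found, and chance flags about 1 in 20 such groups. *Adam22* had 1034 CPM in Chat6 replicate 2, while the other Chat6 libraries lay between 863 and 888 CPM, and the value rests on 70 tags. *Lgi4* had 30.4 CPM in Chat17 replicate 3 from 2 tags, while the other Chat17 libraries had none.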

How the results depend on the processing

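*Lgi1* and *Lgi2* kept their direction and their call in all 22 and 21 alternatives run. The count of called genes was 2603, and 1886 (without Chat17 replicate 4) to 2819 when 1 library was left out. It was 1096 with exonic tags only and 732 with tags outside exons. Without the filter it was 3782, of which 31.1% were higher in MNs against 49.1% of the calls in the filtered fit. *Adam23* turned to 0.41 with exonic tags and 0.19 outside exons, in fits scaled to those tags alone, and to 0.053 with each position counted once. It was called at -0.24 with DESeq2 and at -0.46 without the filter. *Adam22*, which missed the threshold, was called at -0.29 with DESeq2 (adjusted p = 0.000109) and with relative log expression size factors (adjusted p = 0.00842). It was also called at -0.51 without the filter and at -0.73 outside exons, the latter in a fit scaled to those tags alone. The difference of *Adam22* between the lines was 0.012 without a filter and ran from -0.071 to 0.024 when 1 library was left out.

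The 405 called windows became 237 with a flank of 100 nt, 260 without the exon body and 73 outside exons only, and 222 (without Chat17 replicate 4) to 416 when 1 library was left out. The windows called higher were 60.7% of the calls, 39.7% with a flank of 100 nt, 88.1% without the exon body and 70.7% with 500 nt, and the median of all windows moved from 0.11 to -0.35 at 100 nt and 0.45 without the body. At 100 nt the 111-nt exon stood at 0.36, the 62-nt at -0.32, the 195-nt at -0.21, the 108-nt at -0.18 and the first *Adam23* exon at -0.19. The first *Adam23* exon was also at -0.27 outside exons and from -0.17 to 1.29 when 1 library was left out. The 87-nt exon was at 0.048 with 500 nt, 0.11 with 100 nt and 0.25 without the body. It was at 0.25 with the long-barcode MN libraries only (replicates 3 and 4 of each line), and from -0.26 to 0.060 when 1 library was left out. The 30-nt exon was at -0.26 outside exons. The 195-nt exon was called at 1.32 without the body, and the 111-nt exon at -0.82 without Chat6 replicate 3. The cause of these changes was not tested.

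The median inclusion rate over the member events was 76.6%, 93.3% with reads in the exon body added and 41.4% with the smaller inclusion junction alone. Libraries with the same replicate number were at most weakly correlated (r from -0.06 to 0.19 over 12 same-numbered pairs, 3 over 0.1). The pairs over 0.1 all joined Chat6 with Chat17, at 0.16, 0.11 and 0.19 for replicates 1, 3 and 4. With the replicate block 2152 genes and 366 windows were called. MN depth, down to 42 *Adam22* tags in a library, limits every window value.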

Other observations

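Among the other genes with EPTP repeats, *Gpr98* had 0.23 RPKM, and its tags were more frequent in MNs, with 61 MN and 203 WSC tags and a log2 difference of 1.52 (SE 0.25, adjusted p = 6.65e-06, edgeR). *Nova1* had a lower tag level in MNs (-0.42, SE 0.10, adjusted p = 0.000795) and *Nova2*, the gene whose coding sequence the transgene carries, a higher one (0.48, SE 0.15, adjusted p = 0.00500484). The *Nova2* RNA level was 5.53 RPKM in the male and 3.73 RPKM in the female library.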
